A study of Caenorhabditis elegans with 12 samples.

Results

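The RNA of met-2 set-25 double mutant embryos of Caenorhabditis elegans was compared with that of set-25 single mutant embryos. Both genotypes carry the same set-25 mutation, so the comparison is between embryos with and without an intact met-2 gene in a set-25 background. It rested on 6 of the 12 libraries of the series, namely the 3 whose count columns name the double mutant and the 3 whose columns name set-25. The double mutant carried met-2(n4256) and set-25(n5021), and the single mutant carried set-25(n5021) alone. The 3 wild-type libraries (N2, the Bristol strain) are given beside them as levels. They entered the scaling of libraries and 1 alternative fit, but not the fit behind the calls given here. Worms were kept at 20 °C, and embryos younger than the bean stage were taken 60 to 65 h after larvae had been synchronized, the time depending on the strain. Total RNA was depleted of ribosomal RNA before sequencing.

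MET-2 and SET-25 are histone methyltransferases that act on lysine 9 of histone H3 (H3K9), the modification that marks heterochromatin. In worm embryos MET-2, a relative of mammalian SETDB1, places the lower methylation states and SET-25 is known for trimethylation. H3K9 methylation is known for keeping repeats and tissue-specific genes silent and for holding chromatin at the nuclear periphery. Maternally loaded RNA makes up most RNA of the youngest embryos, and transcripts of the embryo's own genes take over as cells divide and differentiate.

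The set-25 libraries (a, b and c) held 21839946, 23924919 and 16929810 gene counts, and those of the double mutant held 42943190 to 46833848. Depth and genotype therefore cannot be told apart. The N2 libraries held 41033729 to 52683919 gene counts, a depth like that of the double mutant. TMM factors were 1.06 to 1.16 in set-25, 0.902 to 0.923 in the double mutant and 0.893 to 0.915 in N2. Across genes, Spearman correlations were 0.997 to 0.9974 within the double mutant and 0.959 to 0.989 within set-25, where libraries a and c were the least alike. Library a of set-25 stood apart from the others, and its quality weight in limma voom was 0.108, against 2.103 for library b and 0.314 for library c. By the labels there were 2 independent biological replicates, while each genotype has 3 libraries, so the p-values may measure technical spread. Levels are counts scaled to library size by TMM (CPM), log2 changes are the double mutant over set-25, and SE is the standard error of the log2 change with n = 3 per genotype. A gene is called higher or lower where edgeR's quasi-likelihood test gave a two-sided Benjamini-Hochberg adjusted p under 0.05.

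The RNA of the 2 mutated genes was checked first. The levels of met-2 (R05D3.11; chromosome III from 8375300 to 8380848) were 305, 362 and 322 CPM in the set-25 libraries and 54.25, 51.03 and 52.01 CPM in the double mutant. N2 had 314, 330.1 and 320.1 CPM, so the range of set-25 enclosed that of N2 and every double mutant library was below both. The log2 change was -2.65 (SE 0.08, adjusted p = 9.88e-05). The RNA of set-25 itself (Y43F4B.3; chromosome III from 13283824 to 13293090) was at 37.26, 40.05 and 37.62 CPM in the single mutant and at 57.5, 62.3 and 60.6 CPM in the double mutant. N2 had 181 to 218 CPM. Both mutants thus held far less set-25 RNA than N2, and the double mutant held more than the set-25 libraries. The log2 change was 0.65 (SE 0.05, adjusted p = 0.00487). unc-64 and F56A8.8 overlap set-25 on the other strand, and with the strand setting of the counting not given in the sources used here, their reads cannot be told apart from those of set-25.

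Of 13073 genes tested, 2343 (17.9%) were higher and 1501 (11.5%) were lower in the double mutant. The median log2 change over all genes tested was -0.05. With library totals in place of TMM scaling that median was -0.35, and 1510 genes were higher and 3687 lower. Calls in the higher direction were thus 60.95% of all calls with TMM and 29.06% with totals, and every change below is relative to the TMM value. The number of calls also rested on single libraries. Without library a of set-25, 3592 genes were higher and 3603 lower, and without library b, 1920 and 891. Without library a, b or c of the double mutant, 1308, 1223 and 1164 genes were higher and 310, 275 and 207 were lower. With all libraries thinned to the same depth, 1976 were higher and 1063 lower. No value crossed between genotypes in 2343 of the genes called higher and in 1484 of those called lower. With 3 libraries per genotype a call nearly requires this, and the share over all genes tested is not given. The absence of overlap is therefore no support beyond the calls.

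**Figure D1:**
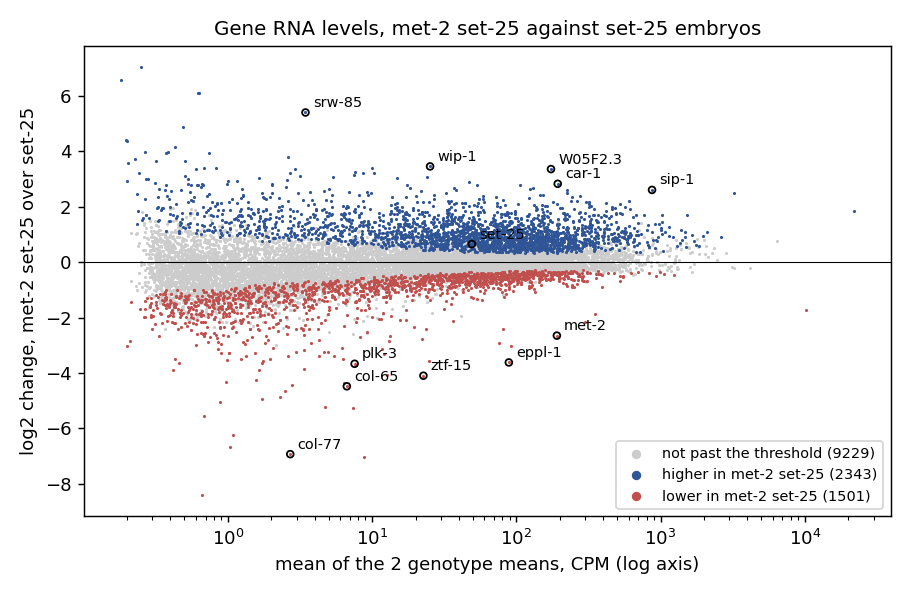
Log2 change of the double mutant over set-25 (vertical axis) against the mean of the 2 genotype means in CPM (horizontal log axis), 1 point per gene for the 13073 genes tested. Blue points are the 2343 genes called higher and red points the 1501 called lower; met-2, ztf-15, eppl-1, plk-3 and cuticle collagens lie far below 0, and srw-85, wip-1, W05F2.3, car-1 and sip-1 far above it.

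A narrower set held genes that were called, changed at least 2-fold, had a mean of at least 1 CPM and showed no overlap between the 6 libraries. It numbered 1032 genes higher (7.89% of those tested) and 403 lower (3.08%). In 867 of the 1032 higher genes the mean level of N2 was nearer the double mutant than set-25, and in 165 it was nearer set-25. Among the 403 lower genes N2 was nearer the double mutant in 293 and nearer set-25 in 110. In 879 of the higher genes every set-25 library was below every N2 library, and in 391 every double mutant library was above every N2 library. In 316 of the lower genes every set-25 library was above every N2 library, and in 149 every double mutant library was below. The shares over all genes tested are not given, and the set was picked for a gap between the mutants. These counts without overlap are therefore no further support. By the mean levels, the set-25 single mutant, and not the double mutant, lay farther from N2 in most genes of either direction. The N2 and double mutant libraries were also alike in depth and TMM factor, and the set-25 libraries had fewer counts. Here and below, a set-25 level apart from both therefore cannot be told apart from this difference between libraries.

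Several genes were low in set-25 and near the N2 level in the double mutant. W05F2.3 (chromosome I, 3367640 to 3368550) had 23.4, 34.7 and 34.9 CPM in set-25 and 293, 324 and 334 CPM in the double mutant. All 3 N2 libraries, at 315 to 390 CPM, lay in the range of the double mutant or just above it. The log2 change was 3.36 (SE 0.20, adjusted p = 0.000194). wip-1 (R144.4, chromosome III, 5018639 to 5021120), the worm relative of the WASP-interacting protein that regulates actin, had 3.28, 4.63 and 4.78 CPM in set-25. It had 42.2, 46.0 and 50.5 CPM in the double mutant and 39.6 to 57.6 CPM in N2. Its log2 change was 3.45 (SE 0.19, adjusted p = 0.000203), and no set-25 library came near the other genotypes.

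Other genes were high in the double mutant against both set-25 and N2. srw-85 (C25F9.1, chromosome V, 19429387 to 19431136), a serpentine receptor of class W, had 0.118, 0.236 and 0.105 CPM in set-25 and 6.64, 7.11 and 6.51 CPM in the double mutant, while N2 held 0 to 0.107 CPM. Its log2 change of 5.40 (SE 0.27, adjusted p = 0.000216) was the largest among genes with a symbol in the narrower set. mihp-1 (C01A2.7, chromosome I) rose from a mean of 1.97 ± 0.79 CPM to 18.6 ± 1.25 CPM (SD, n = 3), and N2 had 2.36 CPM. enu-3.2 (C38D4.1, chromosome III) rose from 1.68 ± 0.54 to 15.6 ± 0.57 CPM, with 2.86 CPM in N2. The F-box gene fbxa-43 (T20H9.2, chromosome III) rose from 0.530 ± 0.146 to 4.87 ± 0.56 CPM, with 0.220 CPM in N2. arrd-22, which encodes a protein with an arrestin domain, rose from 0.354 ± 0.104 to 4.91 ± 0.29 CPM, and its N2 mean of 1.94 CPM lay between the mutants. The log2 changes of these 4 genes were 3.21 to 3.80 (edgeR adjusted p = 0.000396 to 0.000720). The genes without a symbol Y57G11C.51 and C55C3.3 showed the same pattern, with log2 changes of 3.41 and 3.37 and N2 means of 3.07 and 0.709 CPM, and Y57G11C.51 overlaps Y57G11C.36 on the same strand.

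The genes with the widest gap in the lower direction fell into patterns that the N2 levels set apart. ztf-15 (R06C7.9, chromosome I, 7255380 to 7258700), a zinc finger gene, had 47.4, 45.2 and 36.0 CPM in set-25 and 2.54, 2.35 and 2.60 CPM in the double mutant, for a change in log2 of -4.10 (SE 0.13, adjusted p = 9.88e-05). N2 had 34.3 to 41.4 CPM, so the ranges of set-25 and N2 overlapped and the double mutant lay far below both. plk-3 (F55G1.8, chromosome IV, 7470860 to 7473209), a polo-like kinase, had 15.4, 15.3 and 11.4 CPM in set-25 and 1.27, 1.05 and 0.978 CPM in the double mutant, for a change in log2 of -3.67 (SE 0.18, adjusted p = 0.000231). N2 had more than either, at 27.41 to 28.98 CPM.

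eppl-1 (T01B11.2, chromosome IV, 8449353 to 8451759) showed the other pattern. It had 142, 161 and 189.6 CPM in set-25, and 12.8, 13.8 and 13.4 CPM in the double mutant. N2 had 15.8 to 16.3 CPM, so set-25 alone held high levels. The log2 change was -3.62 (SE 0.12, adjusted p = 9.88e-05). K10D3.6 (chromosome I, 7116329 to 7116655) likewise had 41.5 to 53.7 CPM in set-25, 3.15 to 4.59 CPM in the double mutant and 2.95 to 3.34 CPM in N2, for a change in log2 of -3.58 (SE 0.20, adjusted p = 0.000203). Without any 1 of the 6 libraries, ztf-15, plk-3, eppl-1 and K10D3.6 stayed past the threshold.

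**Figure D2:**
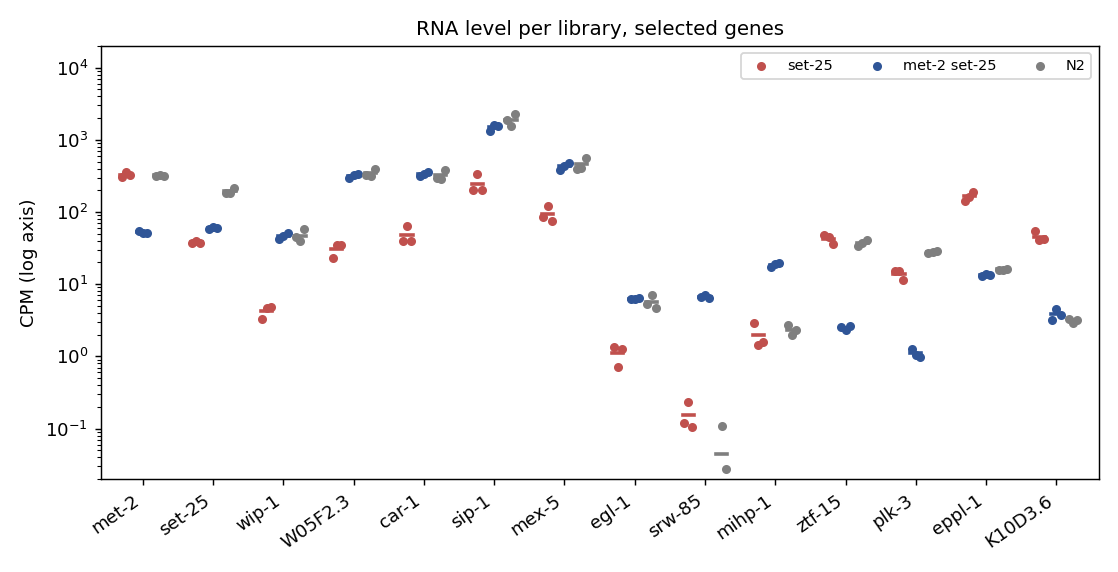
Levels in CPM (log axis) of 14 genes in each set-25 (red), double mutant (blue) and N2 (grey) library, with a bar at the mean of the 3 libraries; the N2 library with no srw-85 count is not drawn. wip-1, W05F2.3, car-1, sip-1, mex-5 and egl-1 are low in set-25 alone, ztf-15 and plk-3 are lowest in the double mutant, and eppl-1 and K10D3.6 are high in set-25 alone.

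The largest falls by log2 change belonged to genes with few counts in the double mutant and an uneven level in set-25. col-77 (M195.1, chromosome II), a cuticle collagen, had 0.750, 6.44 and 8.93 CPM in the set-25 libraries and 0 to 0.0925 CPM in the double mutant, for a change in log2 of -6.93 (SE 1.16, adjusted p = 0.00572). col-65, col-115 and col-125 had log2 changes of -4.94 to -4.48 and were also lowest in library a of set-25 and highest in library c. The call of col-115 was lost without library b or c of the double mutant and that of col-125 without any 1 of its 3 libraries (adjusted p = 0.0586 to 0.0676), over a range from 8.36e-08 to 0.0676 across the alternatives for both. rig-4 overlaps col-115 and best-7 overlaps col-125 on the other strand. fip-6, named for induction by fungal infection, had 136 counts in set-25 and 2 in the double mutant, a 121-fold ratio per unit of depth with a 95% counting interval of 32.8 to 1008. col-182, annotated as a pseudogene, had 137 and 3 counts, an 81.2-fold ratio with an interval of 27.2 to 398.5. These intervals cover counting error only. Among genes without a symbol, K01D12.9 had 2.33, 13.98 and 35.78 CPM in set-25 and 0.116 to 0.143 CPM in the double mutant, and R12E2.15 had 3.04, 18.8 and 21.5 CPM against 0.206 to 0.625 CPM. In N2 each of these genes was at a mean of 0.149 CPM or less.

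Maternal RNAs were higher in the double mutant than in set-25. Of 25 maternal and oocyte RNAs tested, 18 were higher (72.0%, against 17.9% of all genes tested) and none was lower (against 11.5%). Their median log2 change was 1.204, against -0.05 for all genes tested. Their summed level was 2797, 3427 and 2471 CPM in set-25 and 5968, 6698 and 6754 CPM in the double mutant, and N2 had 6671 to 8561 CPM. All double mutant libraries were thus above all set-25 libraries and close to N2. mex-5, which encodes an RNA-binding protein of the anterior cytoplasm, had 84.5, 123 and 75.0 CPM in set-25 and 386, 440 and 476 CPM in the double mutant, for a change in log2 of 2.204 (SE 0.23, adjusted p = 0.000720). pie-1, which keeps germline blastomeres transcriptionally silent, changed by 2.05 (SE 0.18, adjusted p = 0.000544), and gld-1, a germline translational repressor, by 2.03 (SE 0.23, adjusted p = 0.000832). The lists of this and the following paragraphs with no lower call by edgeR held 0 to 3 lower genes at an unadjusted p under 0.05, 0 to 2 by DESeq2 and 0 to 6 by limma voom, the most in the pharynx list by limma voom. In bulk embryos, fewer cells of a kind and less RNA per cell cannot be told apart, and neither can the share of young embryos in a sample.

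P granules, the RNA-protein bodies of the germline, and eggshell genes showed the same direction in part of their members. Of 16 P granule genes, 7 were higher (43.75%, against 17.9% of all genes tested) and none lower (against 11.5%), with a median of 0.48. car-1, an RNA-binding protein of cytoplasmic granules, had 39.9, 63.4 and 40.2 CPM in set-25 and 319.7, 335 and 363.5 CPM in the double mutant, for a change in log2 of 2.83 (SE 0.23, adjusted p = 0.000339). N2 had a mean of 321 CPM. The helicase gene cgh-1 changed by 1.71 (SE 0.20) and deps-1 by 1.33 (SE 0.13), while pgl-1 at -0.20, glh-1 at 0.13 and glh-4 at -0.41 were not past the threshold. Of 9 eggshell genes tested, 4 were higher (44.4%) and none lower, with a median of 0.42. cpg-1, a chondroitin proteoglycan of the eggshell, had 136, 291 and 177 CPM in set-25 and 575, 648 and 672 CPM in the double mutant. cbd-1, a chitin-binding eggshell protein, changed by 1.13 (SE 0.28, adjusted p = 0.0119), over a range of p from 2.78e-05 to 0.0536 across the alternatives, the highest without library c of the double mutant. Without library b or c of the double mutant 2 eggshell genes were higher.

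Of the adult markers that could be carried over with embryos, yolk and sperm genes were at low levels. The 2 gonad sheath genes ceh-18 and lim-7 summed to 33.55 to 54.33 CPM in set-25 and 46.6 to 48.5 CPM in the double mutant. The 6 vitellogenins, the yolk proteins of the adult intestine, summed to 0.471 to 1.103 CPM in set-25 and 1.05 to 2.43 CPM in the double mutant. N2 had 0.573 to 2.054 CPM, a range that overlapped both. Only vit-1 was tested, and it passed the filter on low counts only through the double mutant libraries. It was called higher, by 1.79 (SE 0.25, adjusted p = 0.00977, range 0.00025 to 0.0586 across the alternatives). Sperm genes summed to at most 3.18 CPM in any set-25 library, 5.48 to 6.04 CPM in the double mutant and 2.46 to 2.84 CPM in N2, with 19 of 66 at 0 in all 6 libraries. Of 6 sperm genes that passed the filter on low counts and were tested, 3 were higher and 1 lower. The higher ones, nspd-7, nspd-1 and spe-11, were near 0 in set-25 and passed only through the double mutant libraries. The lower one, spe-42, passed through the set-25 libraries. The filter thus fixed the direction of these calls, and their counts are no support for a direction of the list. The nspd family gene nspd-7 had 0.158, 0.0393 and 0.105 CPM in set-25 and 0.995, 0.832 and 0.875 CPM in the double mutant, and nspd-1 had no counts in set-25 and 0.324 to 0.428 CPM in the double mutant. Their N2 means were 0.123 and 0.0320 CPM, so the double mutant was the highest genotype at these low levels. Without any 1 library of the double mutant, 1 sperm gene was higher, and without library a of set-25, 6 were. Without a double mutant library nspd-1 and spe-11 did not pass the filter and were not tested. Near-identical copies exist in this family, and the counting of reads with several matches is described nowhere in the labels.

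Genes that the embryo transcribes early were called in both directions, more often higher. Of 30 early zygotic genes tested, 9 were higher (against 17.9% of all genes) and 2 lower (against 11.5%), with a median of 0.35. The higher share was above that of all genes and the lower share below it. sdz-21 changed by 1.51 (SE 0.16, adjusted p = 0.00166), and ref-1, a bHLH transcription factor gene downstream of Notch, by 1.43 (SE 0.10, adjusted p = 0.000632). vet-1 had 394, 289 and 271 CPM in set-25 and 165, 177 and 170 CPM in the double mutant, and fell by 0.90 on the log2 scale (SE 0.17, adjusted p = 0.00645). The summed level of the list overlapped between genotypes, at 2588 to 3272 CPM in set-25 and 2825 to 3049 CPM in the double mutant. There were 14 early zygotic genes higher without library a of set-25 and 6 without library c of the double mutant.

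Cell-cycle genes and histone genes were higher in larger shares than the 17.9% of all genes tested. Of 41 mitosis and cell-cycle genes, 14 were higher (34.15%) and 1 lower (2.44%), with a median of 0.32. pcn-1, the replication clamp PCNA, had 284, 245 and 222 CPM in set-25 and 603, 689 and 659 CPM in the double mutant, for a change in log2 of 1.38 (SE 0.12, adjusted p = 0.000755). The replication helicase subunit mcm-7 changed by 1.36 (SE 0.17) and the cyclin gene cyb-3 by 1.27 (SE 0.15). Without any 1 double mutant library, 7 of this list were higher, and without library a of set-25, 22. Of 72 histone genes, 34 had no count in any of the 6 libraries and 34 were tested. Of those tested, 18 were higher (52.9%) and 1 lower (2.94%). Their median was 0.87 and their summed level was 9343 to 14240 CPM in set-25 and 17810 to 20770 CPM in the double mutant. his-74 had 29.01, 17.59 and 13.5 CPM in set-25 and 88.4, 105 and 97.8 CPM in the double mutant, and his-37 fell by 0.74 (SE 0.11, adjusted p = 0.00548). Most histone genes have near-identical copies, so the level of a single one is uncertain.

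Cytosolic ribosomal protein genes differed among themselves. Of 77 tested, 30 were higher (38.96%, against 17.9% of all genes) and 5 lower (6.49%, against 11.5%), with a median of 0.32. rpl-20 had 39.8, 53.4 and 60.3 CPM in set-25 and 191.5, 236 and 216 CPM in the double mutant, for a change in log2 of 2.07 (SE 0.20, adjusted p = 0.000587). rpl-4 had 102, 159 and 129 CPM in set-25 and 507, 527 and 554 CPM in the double mutant, while N2 had 444 CPM. rps-21 went the other way, from 19.9, 16.6 and 20.7 CPM to 9.25, 10.3 and 8.54 CPM, and fell by 1.02 (SE 0.13, adjusted p = 0.00564). Without any 1 double mutant library, 18 or 19 genes of this list were higher and 1 or 2 lower.

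Among the tissue lists, the epidermal one had the largest share of higher calls. Of 20 epidermal genes tested, 9 were higher (against 17.9% of all genes) and none lower (against 11.5%), with a median of 0.80. elt-3, a GATA factor of the epidermis, had 9.947, 8.992 and 12.14 CPM in set-25 and 28.96, 34.53 and 29.16 CPM in the double mutant, for a change in log2 of 1.58 (SE 0.15, adjusted p = 0.00116). The nuclear receptor gene nhr-23, needed for molting, changed by 1.39 (SE 0.20) and let-653, a gene of the excretory duct lining, by 1.505 (SE 0.24). lin-26, which specifies epidermal fate, changed by 1.16. The epidermal list summed to 2659, 4844 and 5628 CPM in set-25 libraries a, b and c and to 7140 to 7505 CPM in the double mutant, with 4242 to 5628 CPM in N2. Leaving out library a of set-25 gave 15 higher epidermal genes, and leaving out library b or c of the double mutant gave 6.

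Body wall muscle genes had a median of 0.29, and 0 of 20 were called by edgeR, with 3 higher and 0 lower at an unadjusted p under 0.05. DESeq2 called 3 higher and 0 lower, and limma voom with quality weights 9 and 2. Leaving out library a of set-25 gave 7 higher and 2 lower muscle genes. Their summed level was 1717, 2565 and 3067 CPM in set-25 and 3053 to 3163 CPM in the double mutant. Of 11 pharynx genes, 3 were higher (27.3%, against 17.9% of all genes) and none lower (against 11.5%), although their median was -0.88. The higher members were regulators: pha-4, the FoxA factor that specifies the pharynx, had 105, 192 and 217 CPM in set-25 and 341.5, 330.5 and 360.0 CPM in the double mutant, a change of 1.00 (SE 0.32, adjusted p = 0.0224). The values of the pharyngeal myosin genes myo-1 and myo-2 were -1.95 and -2.06 and were not past the threshold. Without any 1 library of the double mutant 0 pharynx genes were called, and the adjusted p of pha-4 was 0.0707 to 0.0839 there, over a range from 1.82e-06 to 0.0839 across the alternatives. Without library a of set-25, 4 pharynx genes were higher and 6 lower.

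Intestinal and neuronal markers were called in shares near those of all genes tested (17.9% higher and 11.5% lower), apart from the lower direction of the intestine. Of 14 intestinal genes 2 were higher (14.29%) and none lower, among them elt-2, the GATA factor of the gut, which changed by 0.64 (SE 0.19, adjusted p = 0.0337). Its adjusted p ranged from 2.88e-05 to 0.179 across the alternatives, and it was lost with library totals and without library b of set-25 or any 1 library of the double mutant. Of 21 neuronal genes 4 were higher (19.05%) and 2 lower (9.52%), with a median of -0.21. With 1 double mutant library left out 0 intestinal genes were called and 1 neuronal gene was higher and 0 lower. Without library a of set-25, 7 intestinal genes were higher and 4 lower, and 6 neuronal genes were higher and 11 lower. snb-1, the synaptobrevin of synaptic vesicles, had 67.1, 55.0 and 52.7 CPM in set-25 and 209, 220.5 and 232 CPM in the double mutant, a change of 1.92 (SE 0.12, adjusted p = 0.000235). The lower ones were snt-1, at -2.63 (SE 0.81, adjusted p = 0.022), and cho-1, at -1.25 (SE 0.30, adjusted p = 0.0403). Across the alternatives their adjusted p ranged from 1.21e-06 to 0.0915 and from 0.000728 to 0.172. cho-1 passed the filter on low counts only through the set-25 libraries. The intestinal list summed to 324 to 582 CPM in set-25 and 636 to 668 CPM in the double mutant, and the neuronal list to 349.9 to 577 and 664 to 695.5 CPM. In the epidermal, muscle, pharynx, intestinal and neuronal lists alike, library a of set-25 held the lowest sum of the 6 libraries and library c the highest of set-25. The part of this unevenness in the calls was not tested beyond leaving out libraries.

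**Figure D3:**
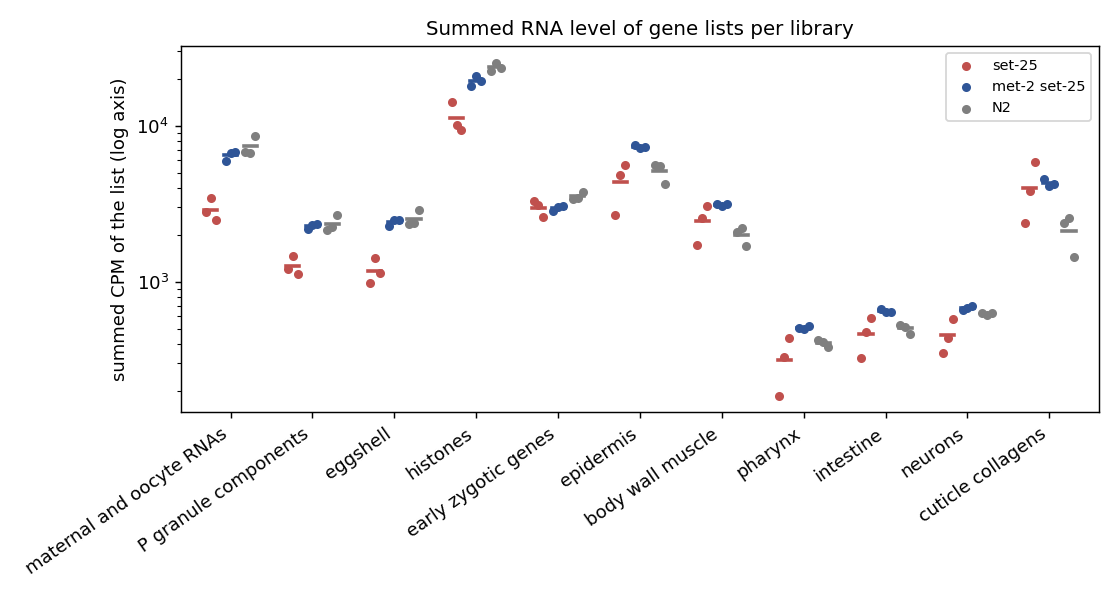
Summed level in CPM (log axis) of 11 gene lists in each set-25 (red), double mutant (blue) and N2 (grey) library, with a bar at the mean of 3 libraries. Maternal, P granule and eggshell sums of set-25 (2471 to 3427 CPM for maternal RNAs) lie below all sums of the double mutant and N2, and the sums of differentiation lists spread widely among the 3 set-25 libraries.

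Cuticle collagens, which epidermal cells secrete into the cuticle, had more lower than higher calls. Of 179 collagen genes counted 70 were tested, with a median of -0.41. Of these, 4 were higher (5.71%, against 17.9% of all genes) and 17 lower (24.3%, against 11.5%). Among the lower ones, col-77, col-115, col-125 and col-182 passed the filter on low counts only through the set-25 libraries. The higher col-176 passed only through the double mutant libraries. For such genes the filter fixed the direction of the call. How many other called collagens it concerns was not counted, so these shares are no support for a direction of the list. Their summed level did not follow this count, at 2386, 3806 and 5810 CPM in set-25, 4110 to 4576 CPM in the double mutant and 1436 to 2559 CPM in N2. The sum of the double mutant lay within the range of set-25. Without library a of set-25, 39 collagens were lower, without library b 7, and without any 1 library of the double mutant 3 or 4. The collagens called higher numbered 1 to 9 with 1 library left out.

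Chromatin and small RNA genes were higher in a larger part than all genes. Of 29 H3K9 methylation and heterochromatin factors tested, 11 were higher (37.9%, against 17.9% of all genes) and 2 lower (6.90%, against 11.5%). Of the lower ones 1 was met-2 itself. The median of the list was 0.18, and -0.10 with library totals. set-9, a SET domain gene with the near-identical relative set-26, had 12.8, 35.2 and 15.1 CPM in set-25 and 82.0, 83.2 and 90.7 CPM in the double mutant, for a change in log2 of 2.02 (SE 0.45, adjusted p = 0.00733). mrg-1, a chromodomain gene, changed by 1.39 (SE 0.07, adjusted p = 0.000428) and the zinc finger gene lin-13 by 1.09 (SE 0.21, adjusted p = 0.00631). Without any 1 double mutant library 5 of this list were higher.

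Argonaute proteins bind small RNAs and carry gene silencing in the germline and the nucleus. Of 36 nuclear RNAi and Argonaute genes tested, 16 were higher (44.4%, against 17.9% of all genes) and 1 lower (2.78%, against 11.5%). Their median was 0.21, and -0.09 with library totals. wago-4, a germline Argonaute, had 10.4, 19.2 and 12.4 CPM in set-25, 56.8, 59.8 and 61.6 CPM in the double mutant and a mean of 33.1 CPM in N2. Its log2 change was 2.08 (SE 0.26, adjusted p = 0.00124), and the double mutant was above both other genotypes. sago-2 had 0.276, 0.118 and 0.0525 CPM in set-25 and 1.09, 1.05 and 1.16 CPM in the double mutant, with 0.0865 CPM in N2. alg-3, an Argonaute of spermatogenesis, had 0.0395, 0 and 0.0525 CPM in set-25 and 0.717, 0.333 and 0.463 CPM in the double mutant. Both sago-2 and alg-3 passed the filter on low counts only through the double mutant libraries. nrde-1 of the nuclear RNAi pathway fell by 0.59 (SE 0.04, adjusted p = 0.00591); without library c of the double mutant its adjusted p was 0.0526, in a range from 2.65e-05 to 0.0526. Without any 1 double mutant library 9 or 10 genes of this list were higher.

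Of 17 nuclear lamina and envelope genes, 5 were higher (29.4%, against 17.9% of all genes) and none lower (against 11.5%), with a median of 0.32. The emerin gene emr-1 had 123, 88.0 and 72.3 CPM in set-25 and 209, 240.5 and 232.5 CPM in the double mutant, a change of 1.27 (SE 0.23, adjusted p = 0.00398). The lamin gene lmn-1 at 0.24 and lem-2 at 0.42 were not past the threshold. Of 12 dosage compensation and sex determination genes, 5 were higher (41.7%) and none lower, with a median of 0.44. her-1, which directs male fate, had 3.83, 2.32 and 3.42 CPM in set-25 and 12.12, 12.32 and 11.79 CPM in the double mutant, a change of 1.92 (SE 0.22, adjusted p = 0.00168). Without any 1 double mutant library, 3 lamina genes and 2 or 3 dosage compensation genes were higher, and without library a of set-25, 10 lamina genes were.

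Genes for DNA repair were called in smaller shares than all genes, and genes for RNA-DNA hybrids had a larger share lower. Of 39 genes for repair of double-strand breaks and for replication stress, 3 were higher (7.69%) and 3 lower (7.69%), with a median of -0.07. rcq-5, a RecQ helicase, fell by 0.35 (SE 0.04, adjusted p = 0.0291) and the Fanconi anemia gene fcd-2 by 0.44 (SE 0.12, adjusted p = 0.0351). Without any 1 library of the double mutant, none of the 39 was called, while without library a of set-25, 7 were higher and 9 lower. Without a double mutant library the adjusted p of rcq-5 and fcd-2 was 0.106 to 0.145, in ranges from 0.000461 to 0.145 and from 1.08e-05 to 0.135. Of 12 R-loop processing genes, 0 were higher and 3 lower (against 11.5% of all genes), with a median of -0.33. At an unadjusted p under 0.05 and by DESeq2 0 were higher too, and by limma voom 1. rnh-2, which encodes a ribonuclease H that cleaves RNA in hybrids with DNA, had 80.5, 56.6 and 54.8 CPM in set-25 and 33.6, 33.9 and 32.8 CPM in the double mutant, with 51.3 CPM in N2. It fell by 0.94 (SE 0.18, adjusted p = 0.00706) and rnh-1.3 by 1.48 (SE 0.21, adjusted p = 0.00842). The call of rnh-1.3 was lost without library c of the double mutant (adjusted p = 0.0602, range 0.000120 to 0.0602), where 1 gene of the list was lower; without library a of set-25, 6 were.

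Programmed cell death in the worm runs from the BH3-only protein EGL-1 to the caspase CED-3. Of 20 cell death and corpse clearance genes tested, 5 were higher (against 17.9% of all genes) and 3 lower (against 11.5%). Their median was 0.15, and -0.14 with library totals. Both shares lay above those of all genes, so the list as a whole had no clear direction. egl-1 had 1.34, 0.707 and 1.26 CPM in set-25 and 6.27, 6.21 and 6.43 CPM in the double mutant, for a change in log2 of 2.52 (SE 0.28, adjusted p = 0.00140), and N2 had 5.70 CPM. ced-3 had 51.6, 60.7 and 58.0 CPM in set-25 and 172, 173 and 196 CPM in the double mutant, a change of 1.67 (SE 0.09, adjusted p = 0.000257), with 172 CPM in N2. For both genes the double mutant was at the N2 level and set-25 was lower. ced-12, an engulfment gene, went from 180.2, 173 and 179 CPM to 119.2, 106.6 and 117.0 CPM and fell by 0.63 (SE 0.05, adjusted p = 0.00371). Without any 1 double mutant library 3 or 4 of the list were higher and 1 lower, and without library a of set-25, 5 were lower.

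Heat shock genes moved in both directions. Of 18 tested, 7 were higher (38.9%, against 17.9% of all genes) and 5 lower (27.8%, against 11.5%). Without a double mutant library 4 or 5 of the list were higher and 2 or 3 lower. Their median of 0.12 was negative with library totals, without a filter on low counts, with DESeq2 and without library a of set-25. sip-1, a small heat shock protein of oocytes and embryos, had 200, 339 and 201 CPM in set-25 and 1313, 1615 and 1570 CPM in the double mutant, a change of 2.61 (SE 0.27, adjusted p = 0.000723), and N2 had 1904 CPM. hsp-6, the mitochondrial Hsp70, changed by 1.69 (SE 0.18, adjusted p = 0.000799). The stress-inducible genes hsp-70 and hsp-16.41 were lower, with 10.6 to 15.5 CPM against 5.15 to 5.67 CPM and 57.2 to 89.6 CPM against 27.1 to 31.5 CPM. Their log2 changes were -1.33 and -1.297, and their N2 means were 6.29 and 38.4 CPM, nearer the double mutant. hsp-16.41 has near-identical relatives.

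**Figure D4:**
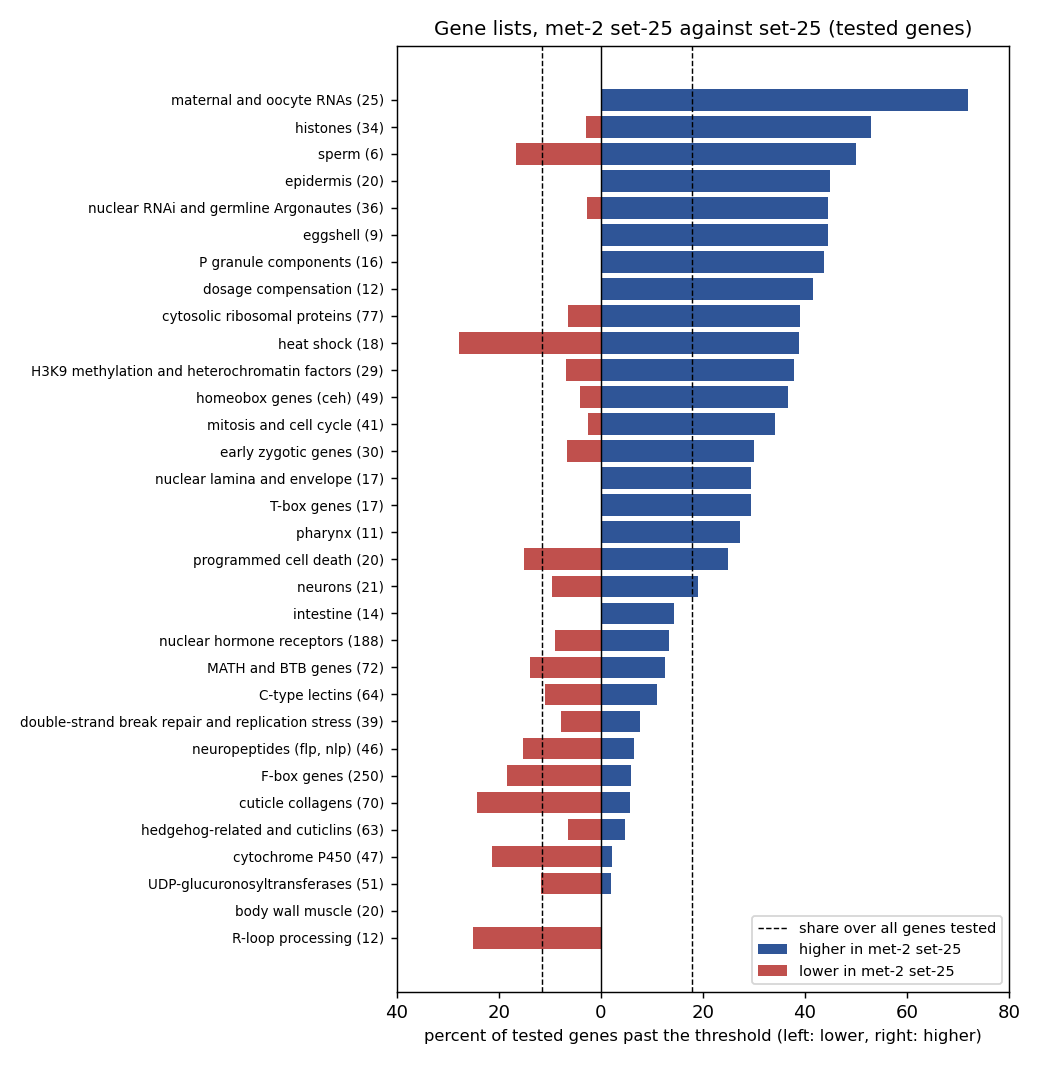
Percent of tested genes of each list called higher (blue, to the right) or lower (red, to the left) in the double mutant, with the number tested in parentheses; dashed lines mark the shares over all genes tested, 17.9% and 11.5%. Maternal RNAs reach 72.0% higher, and R-loop, collagen, cytochrome P450 and heat shock lists have the largest shares lower.

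Repeat families, most of them transposons or short tandem repeats, were tested apart from genes. Of 246 families tested, 46 (18.7%) were higher and 7 (2.85%) lower in the double mutant, with a median log2 change of 0.08 over all families. With library totals 31 were higher and 29 lower. Without library a of set-25, 48 were higher and 25 lower; without a single double mutant library 27 to 36 were higher and 4 or 5 lower. Of the 46 higher families, every double mutant library was above every N2 library in 20 and every set-25 library was below every N2 library in 28, with 4 families in both groups. The shares over all 246 families are not given, and these families were picked for a difference between the mutants. The counts therefore only describe the called families. Of all 53 called families 30 were simple repeats, which are tandem copies of a short unit and named by it.

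The called simple repeats are shown by their units, which let each be set beside its reverse complement. Of the 30, 12 form 6 pairs in which both complements were called higher. For 7 others the complement was tested and not called, for 6 it was not tested, and for 5 the table holds none. (GA)n and (TC)n changed by 2.67 and 2.14, (CCA)n and (TGG)n by 1.22 and 1.66, and (CGA)n and (TCG)n by 1.53 and 1.36. (CATTC)n and (GAATG)n changed by 1.39 and 1.497, (CATCC)n and (GGATG)n by 1.32 and 0.85, and (CATATA)n and (TATATG)n by 1.303 and 1.26. The complements of (CAG)n, (TAG)n and (GATTG)n, which are (CTG)n, (CTA)n and (CAATC)n, were at 0.08, -0.0015 and -0.35, although the first families changed by 2.86, -2.75 and 1.497. Both members of a pair spell the same double-stranded repeat, and which strand the counted reads came from is unknown here. (GA)n had 21.2, 27.02 and 20.81 CPM in set-25, 122, 146 and 173 CPM in the double mutant and 121 to 154 CPM in N2. (CAG)n had 3.91, 5.03 and 4.36 CPM in set-25, 34.5, 28.3 and 33.8 CPM in the double mutant and 27.68 to 41.95 CPM in N2, for a change in log2 of 2.86 (SE 0.14, adjusted p = 8.06e-08). (GGGAA)n changed by 2.70 (SE 0.26, adjusted p = 6.57e-05). In (GA)n and (CAG)n the double mutant was at the level of N2 and set-25 was low.

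Another set of simple repeats was higher in the double mutant than in N2 as well. (GAATG)n had 9.276, 12.21 and 9.247 CPM in set-25, 29.9, 26.2 and 30.8 CPM in the double mutant and 6.85 to 9.42 CPM in N2, for a change in log2 of 1.497 (SE 0.15, adjusted p = 3.19e-05). (GATTG)n had 8.41 to 11.5 CPM in set-25, 26.6 to 31.7 CPM in the double mutant and 5.77 to 10.2 CPM in N2. (CATCC)n, (TCCA)n and (CGA)n had means of 17.9, 42.4 and 17.8 CPM in the double mutant, with 7.14, 18.7 and 6.15 CPM in set-25 and 6.05, 13.7 and 7.30 CPM in N2. In these families the means of set-25 and N2 were nearer each other than that of the double mutant. (TAG)n moved the other way, from 1.58, 2.40 and 2.94 CPM to 0.439, 0.214 and 0.360 CPM, and fell by 2.75 (SE 0.36, adjusted p = 2.96e-05), with 0.375 CPM in N2. (CTCG)n had 3 counts in set-25 and 47 in the double mutant, an 8.81-fold ratio with a 95% counting interval of 2.84 to 44.3.

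Some transposon families were called as well. CEMUDR1, a DNA transposon family, had 130, 146.5 and 131 CPM in set-25, 329.7, 344.5 and 352.5 CPM in the double mutant and 81.4 to 83.2 CPM in N2. Its log2 change was 1.33 (SE 0.06, adjusted p = 1.62e-06), and the 3 genotypes did not overlap. The LTR retrotransposon CER7, which copies itself through RNA, was counted as its repeat ends and its internal part. CER7-LTR had 8.72, 7.19 and 7.30 CPM in set-25, 28.9, 33.5 and 34.9 CPM in the double mutant and 23.3 to 28.7 CPM in N2, a change of 2.07 (SE 0.12, adjusted p = 1e-06). CER7-I changed by 1.999 (SE 0.16, adjusted p = 2e-06), from 4.62 to 6.83 CPM up to 22.6 to 23.7 CPM, with 10.52 to 13.95 CPM in N2. CER10-I had 3.28, 6.52 and 4.73 CPM in set-25, 9.09, 10.1 and 10.3 CPM in the double mutant and 1.31 to 1.61 CPM in N2, and its change of 1.02 (SE 0.29, adjusted p = 0.00674) was lost without library b of the double mutant (adjusted p = 0.0798, range 0.000399 to 0.0798).

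Lower families were few. TIR43YW1, a DNA transposon, went from 21.99, 15.2 and 9.93 CPM in set-25 to 2.82, 5.37 and 2.96 CPM in the double mutant and fell by 2.08 (SE 0.44, adjusted p = 0.00165), with 6.02 to 7.53 CPM in N2. CER17-LTR fell by 1.22 (SE 0.22, adjusted p = 0.000840), from 10.8 to 16.3 CPM down to 4.83 to 6.34 CPM. TC2 fell by 0.61 (SE 0.13, adjusted p = 0.0264), with an adjusted p of 0.101 without library b of set-25 and 0.103 to 0.142 without a double mutant library, in a range from 3.54e-05 to 0.142. Over all families tested, 18.7% were higher and 2.85% lower. By class, 26 of 75 simple repeats tested were higher and 4 lower, both above those shares. Of 37 LTR retrotransposons 6 were higher and 1 lower, both near those shares. Of 68 DNA transposons 5 were higher, a smaller share, and 2 lower, a share near that of all families. Of 31 CELE, CeRep and CERP families 2 were higher, and of 7 Helitrons 1 was.

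**Figure D5:**
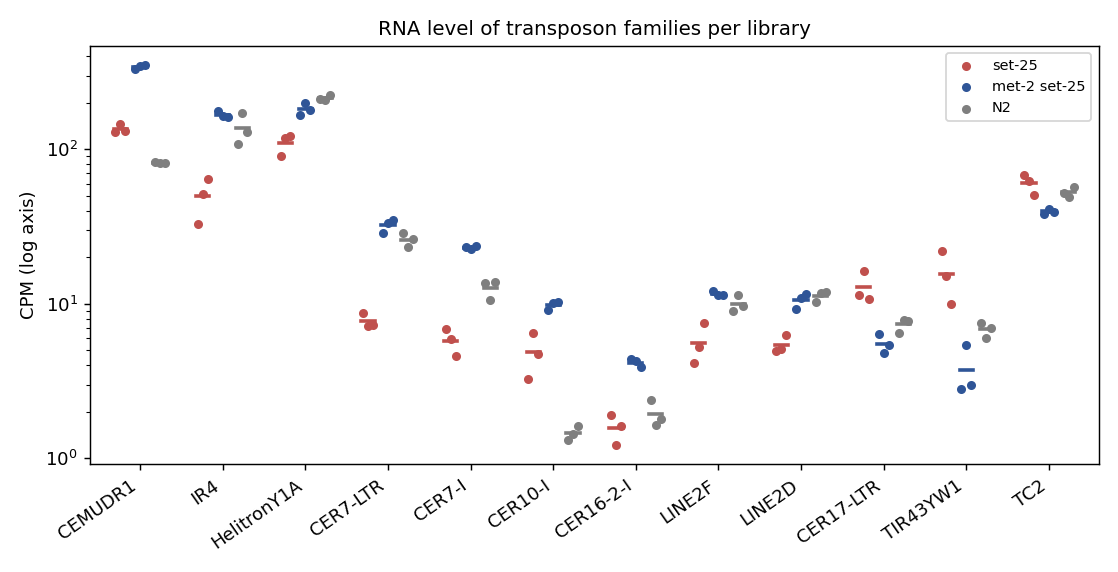
Levels in CPM (log axis) of 12 transposon families in each set-25 (red), double mutant (blue) and N2 (grey) library, with a bar at the mean of 3 libraries. CEMUDR1, CER7-I, CER10-I and CER16-2-I are highest in the double mutant, and CER17-LTR, TIR43YW1 and TC2 are lower there than in set-25.

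The share of all counts that fell in repeat families was not shown to differ. It was 1.101%, 1.152% and 1.092% in set-25 and 1.118%, 1.202% and 1.1% in the double mutant. The means were 1.11% ± 0.03 and 1.14% ± 0.05 (SD, n = 3), a difference of 0.0247 percentage points (exact two-sided permutation test, p = 0.6, where 0.1 is the smallest p that 3 against 3 libraries allow). The family CELE45 alone held 31.9 to 52.2% of repeat counts. Without it, an alternative chosen after seeing the data, the difference was -0.00595 percentage points (exact permutation p = 1.0).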

How the data were processed

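Per the labels' protocols, early embryo total RNA was depleted of ribosomal RNA and sequenced. The authors deposited whole-number counts per gene (27904 genes) and per repeat family (392 families), with no scaling, and a further width column, an other quantity in bases, that was not used. Not given in the sources used here are aligner, build, counter and strand setting. Symbols and positions are from the Ensembl WBcel235 annotation, which held 27166 genes (97.4%) of the table.

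Columns were assigned to genotypes by name. Both groups of 3 libraries were fitted with edgeR 4.0.16 (R 4.3.3; quasi-likelihood, robust, filterByExpr), with TMM factors from all 12 libraries. Repeat families were fitted apart with the gene table's effective library sizes. Adjusted p under 0.05 called a gene. SE is from log2 CPM with a prior count of 2. Alternatives were other scalings, no filter, DESeq2 1.42.0, limma 3.58.1 voom with quality weights, a fit of all 12 libraries, thinning, and leaving out each library. A fit with the column letter as a block was added after the data were seen and is not in the ranges over alternatives.

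Genes named outside lists were met-2, set-25 and those with the largest changes or widest gaps among called genes with a 2-fold change, 1 CPM and no overlap; families needed 100 counts. In lists, up to 3 called members per direction were named, and members named as not past the threshold, lin-26, and repeat families described for their N2 level were chosen after their values were seen. The lists and rules were chosen with earlier results of these data known.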

Additional observations from a re-analysis of the deposited data

How the results depend on the processing

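The number of genes called and the balance between higher and lower calls changed with the processing. With library totals 1510 genes were higher and 3687 lower and 29 repeat families were lower; with limma voom and quality weights 3939 genes were higher, 3502 lower and 22 families lower. The fit of all 12 libraries gave 2523 lower genes and 11 lower families, DESeq2 gave 14 lower families, and a 2-fold minimum left 1158 higher and 661 lower genes. Leaving out 1 library at a time gave 1164 to 3592 higher and 207 to 3603 lower genes, and 27 to 63 higher and 4 to 25 lower families. Of the genes called lower, 199 were shared with the fit without library c of the double mutant. Of 155 named genes, 83 kept their call under all 14 settings and 0 changed direction in any. Of 53 called families 32 kept it and 0 changed direction. Nearly all of these genes and all of these families were picked for being called in the main fit. A change of direction was therefore unlikely from the start, and its absence is no independent support. The cause of the changes in number was not tested.

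Medians changed sign in 9 lists. With library totals the heterochromatin median was -0.10, the Argonaute median -0.089, the cell death median -0.14, the T-box median -0.06 and the heat shock median -0.17. The heat shock median was -0.20 with no filter on low counts, -0.16 with DESeq2 and ranged from -0.10 (without library a of set-25) to 0.32 with 1 library left out. The sperm median, 1.76 over 6 genes, was -0.32 to -0.10 without 1 double mutant library and up to 3.42 without library a of set-25. nspd-1 and spe-11 were not tested without a double mutant library, so these medians were not taken over the same genes. The nuclear hormone receptor median was -0.28 to 0.015 with 1 library left out; without library c of set-25 it was 0.015, the neuronal median 0.11 and the C-type lectin median 0.09. The difference in repeat share was -0.00595 percentage points without CELE45 and -0.00622 to 0.0447 with 1 library left out.

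Columns are lettered while titles are numbered, and nothing in the labels pairs the libraries. Across genes, the deviations of same-lettered libraries from their group means correlated at -0.145, -0.125 and -0.0987 between the genotypes, so no library correlated best with its own letter, while the share of ribosomal RNA was highest in b and lowest in c in each genotype. With the letter as a replicate block 2020 genes were higher and 760 lower, and 51 families were higher and 7 lower; the change of met-2 was -2.65 and that of set-25 0.65. Of the genes called lower without the block, 752 were shared. The share of counts in repeats was higher in the double mutant within each letter, by a mean of 0.0247 percentage points (exact sign-flip permutation p = 0.25, the smallest that 3 pairs allow). Depth limits genes near 1 CPM in set-25, where the smallest library held 16929810 counts.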

Other observations

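Among large gene families beyond the lists above, F-box and cytochrome P450 genes had larger shares of lower calls than the 11.5% of all genes. Of 250 F-box genes tested 15 were higher and 46 lower (18.4%), with a median log2 change of -0.26 against -0.05 for all genes. fbxa-107 had 9.47, 7.07 and 5.83 CPM in set-25 and 0.995, 1.16 and 1.03 CPM in the double mutant, and fell by 2.81 (SE 0.21, adjusted p = 0.000749, edgeR); N2 had 4.15 CPM. Of 47 cytochrome P450 genes, enzymes of lipid and drug metabolism, 1 was higher and 10 lower (21.3%). Some lower members of both families, such as fbxa-89 and cyp-37B1, passed the filter on low counts only through the set-25 libraries. For these the filter fixed the direction of the call. Of 51 UDP-glucuronosyltransferases 1 was higher and 6 lower (11.76%), a share near that of all genes, with 1 or 2 lower without a double mutant library and 18 without library a of set-25. ugt-25 had 25.6, 23.9 and 23.8 CPM in set-25 and 11.2, 10.1 and 9.65 CPM in the double mutant. Without 1 double mutant library 7 to 11 F-box genes and 3 or 4 cytochrome P450 genes were lower; without library a of set-25, 68 and 19 were. The called ceh homeobox genes, regulators of cell fate, were mostly in the other direction. Of 49, 18 were higher (36.7%, against 17.9% of all genes) and 2 lower (4.08%), with a median of 0.34. Without a double mutant library 11 to 13 were higher. ceh-27 had 49.38, 36.28 and 39.98 CPM in set-25 and 94.9, 109 and 107 CPM in the double mutant. The T-box genes had 5 of 17 higher (29.4%), and 3 or 4 without a double mutant library. Among the 5 was tbx-11, which changed by 1.22 (SE 0.13, adjusted p = 0.00115). The shares over all genes tested were 17.9% higher and 11.5% lower, and 5 further families were near or below them in most cases. Of 188 nuclear hormone receptor genes 25 were higher (13.3%) and 17 lower (9.04%). Of 64 C-type lectins 7 (10.9%) and 7 (10.9%) were, and of 72 MATH and BTB genes 9 (12.5%) and 10 (13.9%). Of 46 neuropeptide genes 3 (6.52%) and 7 (15.2%) were, and of 63 hedgehog-related and cuticlin genes 3 (4.76%) and 4 (6.35%). These counts rested on single libraries: without a double mutant library the lower genes numbered 0 in the receptors, 0 or 1 in the lectins and in the MATH and BTB genes, 0 to 3 in the neuropeptides and 1 in the hedgehog-related genes. Without library a of set-25 they numbered 44, 26, 21, 22 and 37.

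By place, 653 of 6499 genes tested on autosome arms were lower (10.1%) and 688 of 4442 in autosome centres (15.5%), while 1297 (19.96%) and 626 (14.1%) were higher. On the X chromosome 344 of 1828 were higher (18.8%) and 142 lower (7.77%). By gene type, 28 of 95 small nucleolar RNA genes were lower (29.5%) and 10 higher, and of 402 pseudogenes 49 were lower and 50 higher. Small nucleolar RNAs are short and often lie in introns, so their counts cannot be told apart from those of their host genes here. Arms here are the outer parts and centres the middle part of each autosome, cut into equal parts by length and not by mapped chromatin domains. No test of these shares was made, and they are given for the main fit only, with no library left out.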
